A study of Glycine max with 14 samples.

Results

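RNA of 8 lipoxygenase loci was followed in soybean cotyledons (Glycine max, the cultivar Williams) during germination. The loci were taken from a list of identifiers and lie in 2 runs of consecutive identifiers. These are Glyma13g42310, Glyma13g42320, Glyma13g42330 and Glyma13g42340 on chromosome 13, and Glyma15g03030, Glyma15g03040, Glyma15g03050 and Glyma15g03060 on chromosome 15. The list names Glyma13g42310, Glyma13g42320 and Glyma15g03030 as seed lipoxygenases and the other 5 as their tandem neighbours. The files hold all 8 loci, as 11 of their 78773 gene models, which belong to 69145 loci in all. Of the 11 models, 10 (7 loci) passed the filter on low values. The 11th, Glyma15g03060.1, is a model of 204 bases that held 1 read in each of 2 libraries and 0 in the other 12, so its level could not be followed. The files pair no identifier with a name, and the RefSeq gene table used here matched 0 of the 69145 loci, the 8 included. The family name therefore rests on the list. That table holds 4 genes with a lipoxygenase symbol on chromosome 13 and 2 on chromosome 15.

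The study sampled cotyledons of greenhouse-grown plants at 7 stages, with 2 biological replicates each, and all libraries share the cultivar, the lyophilized tissue and the absence of any labelled treatment. Stage 1 was 1 day after imbibition, the uptake of water by the dry seed. Stage 2 was 2 days after planting, stage 3 was 2 to 3 days, stage 4 was 3 to 4 days, stage 5 was 4 to 5 days, stage 6 was 5 to 6 days and stage 7 was 6 to 7 days. The sources used here do not give the number of seedlings per replicate.

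Lipoxygenases add oxygen to polyunsaturated fatty acids such as linoleic and linolenic acid. The hydroperoxides they make are the starting point of the oxylipins, among them jasmonate and the volatile aldehydes behind the beany flavour of soybean. The seed isozymes are abundant proteins of the dry soybean seed. Other isozymes appear in the cotyledon after germination and in leaves, and some of those in soybean leaves are known as vegetative storage proteins. Which isozyme each identifier encodes is not given by the files, so roles are given here only at the level of seed locus and neighbour.

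Values are RPKM, read counts scaled to model length and library size, so levels of different models can be compared. The read totals behind them, recovered from the values, ran from 83892589 to 130723918 reads per library. Replicates correlated at 0.945 to 0.963 across models at stages 2 to 7 and at 0.803 at stage 1, where 31.9% of the tested models differed at least 2-fold between replicates. A run of 52 models on chromosome 13, outside the lipoxygenase loci, took 0.566% to 3.43% of the reads of replicate 1 and 3.43% to 15.3% of those of replicate 2, depending on the stage. As a check of the tissue, 6 models recalled as glycinins, storage globulins of the seed, summed to 302 to 333 RPKM in the stage 1 libraries and 4.39 to 5.28 RPKM in those of stage 7. The 8 models recalled as Rubisco small subunits, a component of the carbon-fixing enzyme, summed to 114 and 271 RPKM at stage 1 and to 60118 and 69898 RPKM at stage 7.

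The 2 kinds of locus ran in opposite directions over the course. The stage means of the 3 seed loci were highest at stage 1 and lower at stage 7, Glyma15g03030 118-fold, Glyma13g42310 92.9-fold and Glyma13g42320 30.5-fold by stage means. The 4 measured neighbours had their lowest stage mean at stage 1 and a peak at stage 5 or 6 that was 188-fold to 296-fold higher, and were still 95.6-fold to 194-fold above stage 1 at stage 7. These are RNA levels of a whole organ, in which fewer cells of a type and less RNA per cell cannot be told apart.

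**Figure D1:**
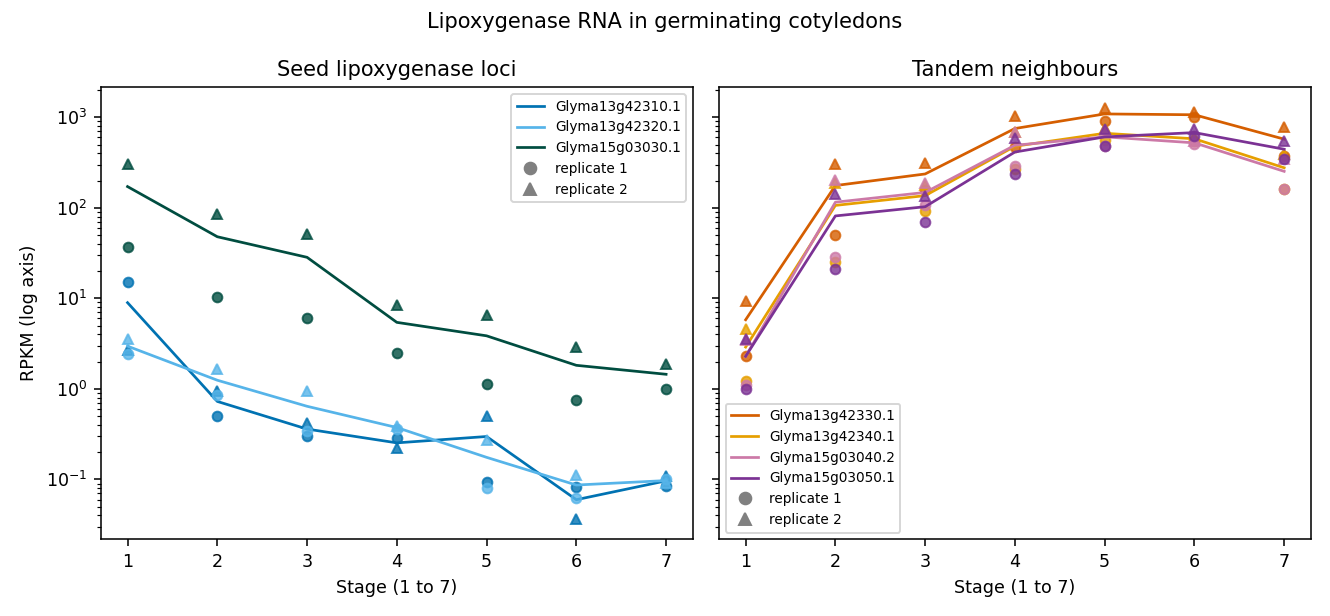
RPKM (log axis) of the highest model of each measured locus by stage, with seed loci on the left and neighbours on the right; circles are replicate 1, triangles replicate 2 and lines the stage means. The seed loci go from 2.42 to 306 RPKM at stage 1 down to 0.0846 to 1.90 RPKM at stage 7, and the neighbours from 0.998 to 9.30 RPKM at stage 1 up to 476 to 1272 RPKM at stage 5.

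Glyma15g03030 was the highest of the seed loci in every library, and its RNA stood apart between the replicates. Its higher model, Glyma15g03030.1, was at 36.7 and 306 RPKM in replicates 1 and 2 of stage 1, at 10.3 and 85.5 at stage 2, at 6.01 and 50.8 at stage 3 and at 2.50 and 8.37 at stage 4. At the later stages it was at 1.12 and 6.59 RPKM (stage 5), 0.759 and 2.88 (stage 6) and 0.998 and 1.90 (stage 7). Replicate 2 was higher at every stage, 8.34-fold at stage 1 and 1.90-fold at stage 7, so the libraries of each stage overlapped those of the next stage in the order of means. Within each replicate the level was lower at each step up to stage 6. The stage mean went from 171.5 ± 191 RPKM (SD, n = 2) to 1.45 ± 0.638.

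The 2 seed loci on chromosome 13 were already low at stage 1. Glyma13g42310.1 was at 15.2 and 2.69 RPKM in replicates 1 and 2 of stage 1. The levels were 0.502 and 0.951 RPKM at stage 2, 0.305 and 0.415 at stage 3 and 0.286 and 0.221 at stage 4. From stage 5 on it lay between 0.0368 and 0.503 RPKM, on 10 to 130 reads per library. Both stage 1 libraries were above all others, and stage 1 was above stage 2 by 12.3-fold in the mean. It was the only measured locus of the 7 that was lower in replicate 2 of stage 1, with 0.177 of the level of replicate 1, while the ratio was 1.45 for Glyma13g42320 and 3.11 to 8.34 for the others.

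Levels of Glyma13g42320.1 were 2.42 and 3.51 RPKM at stage 1, 0.853 and 1.64 at stage 2, 0.342 and 0.943 at stage 3 and 0.359 and 0.390 at stage 4. At stage 5 it was at 0.0810 and 0.270 RPKM, at stage 6 at 0.0619 and 0.111 and at stage 7 at 0.102 and 0.0924. Stage 1 was above stage 2 with no overlap, and stage 4 above stage 5, while stages 2, 3 and 4 overlapped in the order of means, as did stages 5, 7 and 6. Relative to Glyma13g42320, Glyma13g42310 was 6.30-fold higher in replicate 1 of stage 1 and 0.330 to 1.86 of it in the other 13 libraries.

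Among the neighbours, Glyma13g42330 was the highest in every library. Glyma13g42330.1 was at 2.30 and 9.30 RPKM in replicates 1 and 2 of stage 1, 49.7 and 303 at stage 2, 158 and 315 at stage 3, 470.1 and 1033 at stage 4, 905 and 1272 at stage 5, 1003 and 1129 at stage 6 and 373 and 773 at stage 7. Stage 1 lay below all other stages, and stage 7 above stage 3, with no overlap, whereas stages 5, 6, 4 and 7 overlapped from one to the next in the order of means.

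The remaining neighbours were close to each other in level. Glyma13g42340.1 was at 1.22 and 4.57 RPKM at stage 1, 25.4 and 187 at stage 2, 92.5 and 180.2 at stage 3, 268 and 689 at stage 4, 559.8 and 771 at stage 5, 549 and 608 at stage 6 and 159.7 and 394 at stage 7. Glyma15g03040.2, the highest of 3 models of its locus, was at 1.11 and 3.46 RPKM at stage 1, 28.5 and 202 at stage 2, 107 and 189 at stage 3, 287 and 694 at stage 4, 487 and 729 at stage 5, 501 and 542 at stage 6 and 162 and 344 at stage 7. Both loci peaked at stage 5 in the mean, and for both only the gap between stage 1 and stage 2 was free of overlap in the order of means.

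Glyma15g03050.1 was at 0.998 and 3.58 RPKM at stage 1, 21.2 and 142 at stage 2, 68.9 and 137 at stage 3, 237 and 589 at stage 4, 476 and 737 at stage 5, 617 and 738 at stage 6 and 346 and 541 at stage 7. It differed from the other neighbours in the place of its peak, at stage 6 (677 ± 85.6 RPKM, n = 2) where the others peaked at stage 5, but its stages 5 and 6 overlapped. At stage 7 it held 65.5% of its peak mean, against 41.6% for Glyma13g42340 and for Glyma15g03040 and 52.6% for Glyma13g42330.

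Summed over both clusters, the RPKM came mostly from the seed loci at stage 1 and mostly from the neighbours at stage 2. This sum does not describe the chromosome 13 cluster by itself. In replicate 2 of stage 1, its seed loci were at 2.69 and 3.51 RPKM, below its neighbours at 9.30 and 4.57. In replicate 1 of stage 1, its seed loci were at 15.2 and 2.42 RPKM, above its neighbours at 2.30 and 1.22. Over all 11 models, the seed loci held 91.7% and 95.4% of the summed RPKM in the 2 libraries of stage 1, 10.2% and 11.6% at stage 2, 1.83% and 7.44% at stage 3 and 0.291% and 0.370% at stage 4. They held 0.0667% and 0.263% at stage 5, 0.0430% and 0.135% at stage 6 and 0.151% and 0.136% at stage 7. Stages 1, 2, 3 and 4 did not overlap with each other. This share is a sum over members and was not tested. A locus with several models counts in it once for each model. Counting 1 model per locus, the seed sum was 9.65 and 14.9 times the neighbour sum in the libraries of stage 1. At stage 2 it was 0.0934 and 0.106 times that sum. With 1 model per locus, the loci together took 0.0174% and 0.0952% of all reads in the libraries of stage 1 and 0.761% and 1.10% at stage 5.

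**Figure D2:**
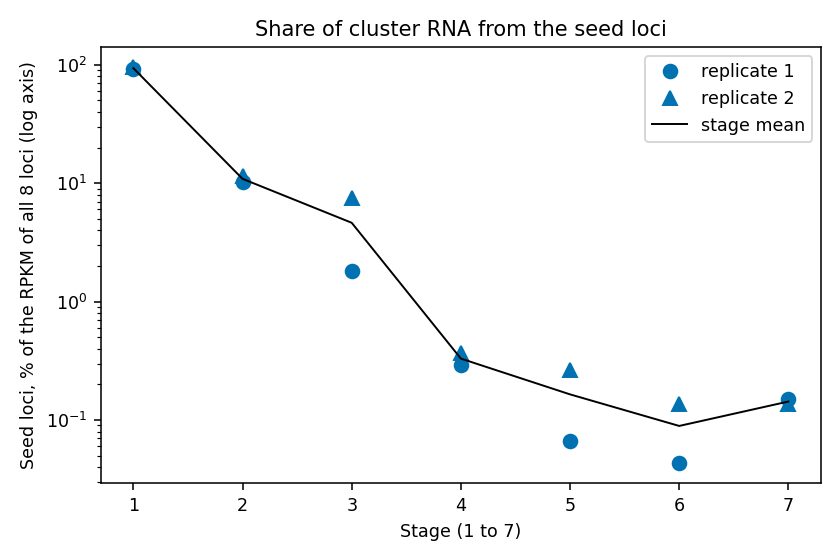
Share of the summed RPKM of all 11 models of the 8 loci that came from models of the 3 seed loci (percent, log axis) by stage. Circles are replicate 1, triangles replicate 2 and the line the stage mean. The share is 93.5% in the mean at stage 1, 10.9% at stage 2 and 0.0892% to 0.330% from stage 4 on. A locus with several models counts once for each model.

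Tests were made in limma on log2(RPKM + 1) over all 44450 tested models, with Benjamini-Hochberg adjusted p-values. A model counted as changed between stages when its adjusted p was under 0.05 and its log2 fold change was 1 or more in size. The contrasts share libraries: stage 1 enters 2 of them, and so do stages 2, 6 and 7. In the moderated F test over the 7 stages, which uses the adjusted p alone, all 10 tested models of the 7 loci passed, against 58.0% of all tested models. The adjusted p ran from 0.000256 (Glyma15g03050.1) to 0.0209 (Glyma15g03030.2). Glyma13g42310 and Glyma13g42320 reached the filter of 1 RPKM in 2 libraries only through stage 1 (Glyma13g42320 also replicate 2 of stage 2), where they are high, so their passing is no evidence about the list. The F call of both Glyma15g03030 models was lost with a pseudocount of 5 (adjusted p = 0.0557 and 0.0602 in limma), under quantile normalization (0.0528 and 0.0535) and in limma voom (0.0631 and 0.0639).

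From stage 1 to stage 7, over the whole course, all 4 tested models of the seed loci fell and all 6 tested models of the neighbours rose. These were 10 of 10, where 35.1% of all tested models changed; 16.6% fell and 18.4% rose, with a median log2 fold change of -0.12. The falls of Glyma13g42310 and Glyma13g42320 are partly fixed by the filter, which they pass through stage 1, so the share of called members is not read against the background for the seed loci. Glyma15g03030.1 fell with a log2 fold change of -5.48 ± 1.26 (SE, limma adjusted p = 0.00546), Glyma13g42310.1 of -2.82 ± 0.50 (0.00123) and Glyma13g42320.1 of -1.84 ± 0.235 (0.000168). The neighbours rose by 6.16 ± 0.859 (Glyma13g42340.1, adjusted p = 0.000293) to 7.16 ± 0.795 (Glyma15g03050.1, 6.98e-05). The value of Glyma15g03030.1 was -4.24 within replicate 1 and -6.73 within replicate 2, and it still passed without replicate 1 or replicate 2 of stage 1, at -7.00 and -3.97. For Glyma13g42310.1 these values were -3.90 and -1.74, and without either stage 1 library it no longer reached the filter. The log2 scale with a pseudocount of 1 understates the falls of models that end near 0.1 RPKM.

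At the step from stage 1 to stage 2 the 6 models of the neighbours rose, against 1.41% of all tested models that rose and 1.78% that changed, with log2 fold changes of 4.22 to 4.66 (limma adjusted p = 0.0219 to 0.0370). The median over all tested models was 0.24. In stage means this was a rise from 2.28 ± 1.66 to 115 ± 123 RPKM for Glyma15g03040.2 and from 5.80 ± 4.95 to 176 ± 179 RPKM for Glyma13g42330.1 (SD, n = 2), so that at stage 2 the SD exceeded the mean. The rises stood in each replicate, at 3.47 to 3.94 within replicate 1 and 4.88 to 5.51 within replicate 2. None of the 4 seed models passed in limma, at log2 fold changes of -2.18 to -0.83, while 0.369% of all tested models fell; 2 of the 4 had an unadjusted p under 0.05, and limma voom also called 0 of the 4. Of the 6 neighbour models limma voom called 4, with Glyma13g42340.1 (adjusted p = 0.0561) and Glyma15g03050.1 (0.0530) not passing. The calls of the neighbours rested on single libraries: all were lost without replicate 1 of stage 1 or without replicate 2 of stage 2. Some were lost without either library of stage 6. Calls over all models also became fewer in each of these fits, where 1 stage kept only 1 library. With single libraries left out the log2 fold changes ran from 2.87 (Glyma15g03050.1) to 6.05 (Glyma15g03040.2). The adjusted p of Glyma13g42340.1 was also above 0.05, at 0.0509 to 0.0643 (limma), without any 1 library of stages 3 to 7.

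Stages 5 and 6 were set against stages 2 and 3, a contrast of 4 libraries with 4 that leaves out stage 1. The 6 models of the neighbours rose again, against 8.60% of all tested models that rose and 26.1% that changed, with log2 fold changes of 2.40 (Glyma15g03040.1) to 3.09 ± 0.562 (Glyma15g03050.1, limma adjusted p = 0.00143), where the median of all tested models was -0.43. Both models of Glyma15g03030 fell, by -2.91 ± 0.892 (adjusted p = 0.0188) and -2.83 ± 0.879 (0.0199), against 17.5% of all tested models. Glyma13g42320.1 had a log2 fold change of -0.74 ± 0.166 (adjusted p = 0.00411), below the fold threshold, from levels of 0.342 to 1.64 RPKM in stages 2 and 3. With a pseudocount of 0.1 it passed, at -2.10 (limma adjusted p = 0.00168). Glyma13g42310.1 did not pass (-0.39 ± 0.354, adjusted p = 0.365). At its low level the value depended on the scale. It was -1.38 with a pseudocount of 0.1 (limma adjusted p = 0.0528) and -1.65 in limma voom (adjusted p = 0.247), passing in neither. Without replicate 2 of stage 2 or of stage 3, the fall of Glyma15g03030.1 was lost (log2 fold change -2.18 and -2.19). It was also lost without replicate 1 of stage 5 or of stage 6 (-2.45 and -2.63). The value was -2.20 within replicate 1 and -3.62 within replicate 2. With replicate number as a block in the fit, the fall passed (limma adjusted p = 0.000526).

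At the last step, from stage 6 to stage 7, limma called 0 of the 10 tested models, of which 0 had an unadjusted p under 0.05. Over all models limma called 1.03% as changed, 0.911% being higher and 0.119% lower at stage 7. Limma voom called 0 of all tested models at this step, so its count of 0 for the members adds nothing. All 4 neighbours had lower means at stage 7, with log2 fold changes of -1.20 ± 0.859 (Glyma13g42340.1) to -0.64 ± 0.795 (Glyma15g03050.1), where the median of all tested models was 0.21. The stage 7 libraries of Glyma13g42340.1 lay at 159.7 and 394 RPKM, both below the stage 6 libraries, and this held for all 4 neighbours. The seed loci were at -0.12 to 0.05. Glyma13g42310.1 and Glyma13g42320.1 lay at 0.0368 to 0.111 RPKM at both stages, where a pseudocount of 1 holds values near 0. Their values therefore do not show a steady level. With a pseudocount of 0.1 they were 0.31 and 0.09.

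**Figure D3:**
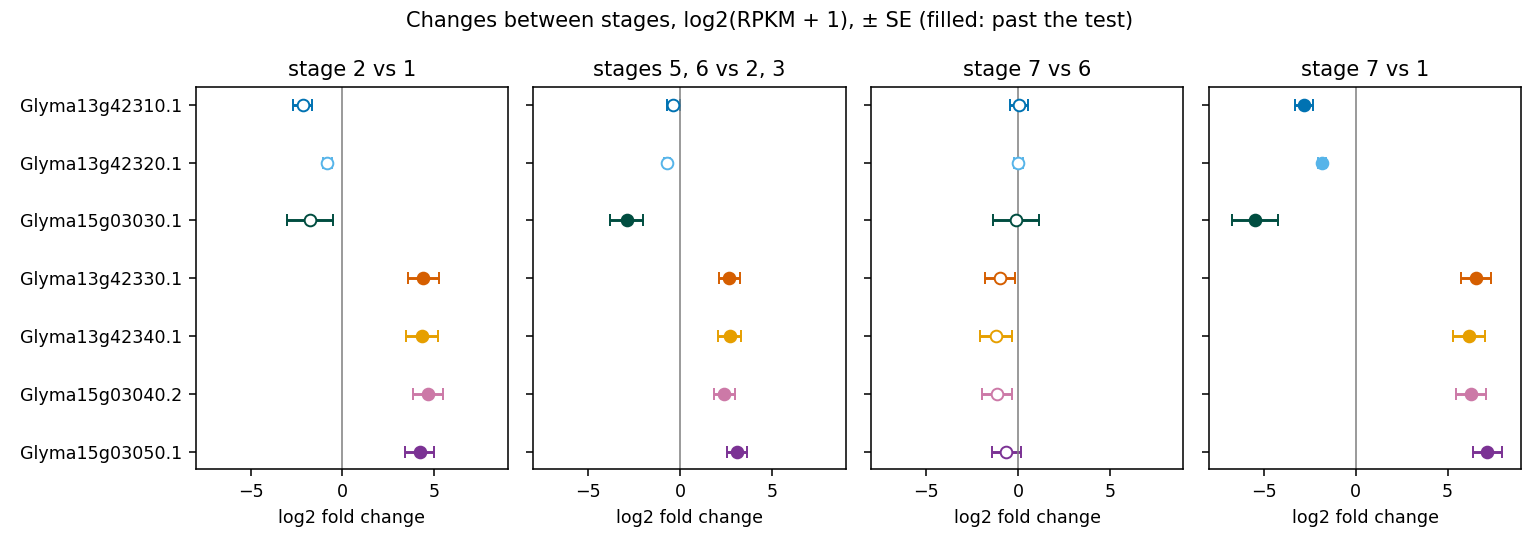
Log2 fold change on the log2(RPKM + 1) scale with its SE for the highest model of each of the 7 measured loci in the 4 contrasts; filled points passed the test and open points did not. For stage 7 against stage 1 the seed loci lie at -5.48 to -1.84 and the neighbours at 6.16 to 7.16.

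The neighbours moved together over the 14 libraries, with Pearson correlations of log2 values of 0.985 to 0.998 between them, and the ratios among them still shifted with stage. The points share libraries and may share reads, so these values are a description. Glyma13g42340 and Glyma15g03040, on different chromosomes, kept to within 0.865 and 1.32 of each other in RPKM in every library. Glyma13g42330 was 1.48 to 2.69 times Glyma15g03040, lowest at stages 2 to 4 (1.48 to 1.74) and at 2.25 and 2.30 at stage 7. Glyma15g03050 changed most against its neighbour Glyma15g03040. The ratio was 0.898 and 1.04 at stage 1, 0.743 and 0.700 at stage 2, 0.644 and 0.724 at stage 3, 0.825 and 0.849 at stage 4, 0.978 and 1.01 at stage 5, 1.23 and 1.36 at stage 6 and 2.14 and 1.57 at stage 7. From stage 3 on, no stage overlapped with another in this ratio, although the replicates differed in level by up to 2.49-fold. The ratio was looked at after its values were seen and was not tested.

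**Figure D4:**
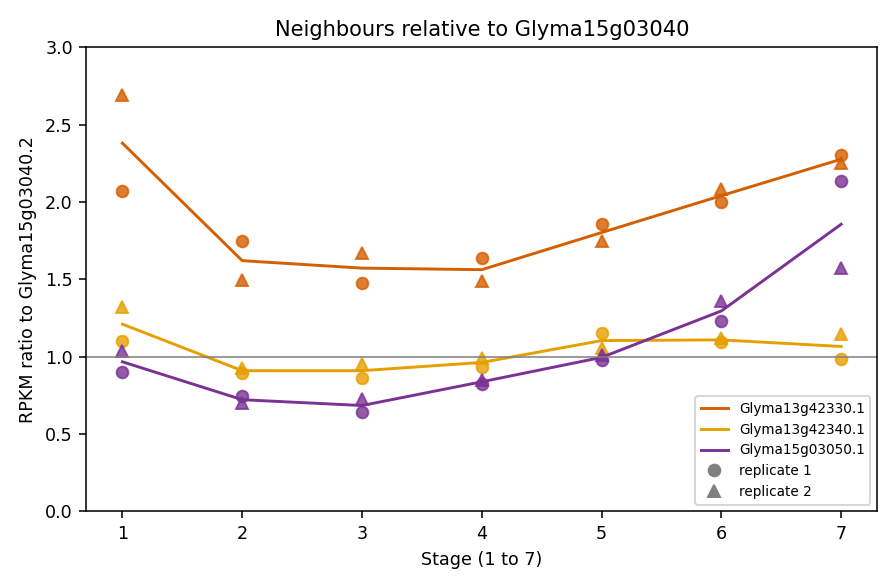
RPKM of 3 neighbours relative to Glyma15g03040.2 by stage; circles are replicate 1, triangles replicate 2, lines the stage means and the grey line a ratio of 1. Glyma15g03050.1 goes from 0.644 and 0.724 at stage 3 to 2.14 and 1.57 at stage 7, while Glyma13g42340.1 stays between 0.865 and 1.32.

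The seed loci were less closely correlated. Glyma13g42320 and Glyma15g03030 correlated at 0.939 over the 14 libraries, Glyma13g42310 and Glyma13g42320 at 0.799 and Glyma13g42310 and Glyma15g03030 at 0.611. These are correlations of log2(RPKM + 1). After stage 1, Glyma13g42310 reached at most 0.951 RPKM and Glyma13g42320 at most 1.64. Their range is narrow beside that of the neighbours, so the coefficients of the 2 kinds of locus are not on a par. Glyma15g03030 was 2.41 to 122 times Glyma13g42310. Each seed locus correlated negatively with each of the 4 neighbours, at -0.872 to -0.642.

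The replicates differed in the same direction for most members. The neighbours were higher in replicate 2 at each of the 7 stages, by 6.09-fold to 7.36-fold at stage 2, 1.77-fold to 2.00-fold at stage 3, 1.08-fold to 1.20-fold at stage 6 and 1.56-fold to 2.47-fold at stage 7. Glyma15g03030 was also higher in replicate 2 throughout. Over all tested models the median log2 difference of replicate 2 and replicate 1 was -0.06 at stage 2 and 0.38 at stage 1, so the gap of the neighbours at stage 2 was not one of all models. The glycinin sum was also higher in replicate 2 at stages 2 to 6 (137 against 29.7 RPKM at stage 3) and the Rubisco sum at stages 1, 2, 4, 5 and 7 (2396 against 1477 RPKM at stage 2). The part of the glycinin and Rubisco differences in the results was not tested.

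**Figure D5:**
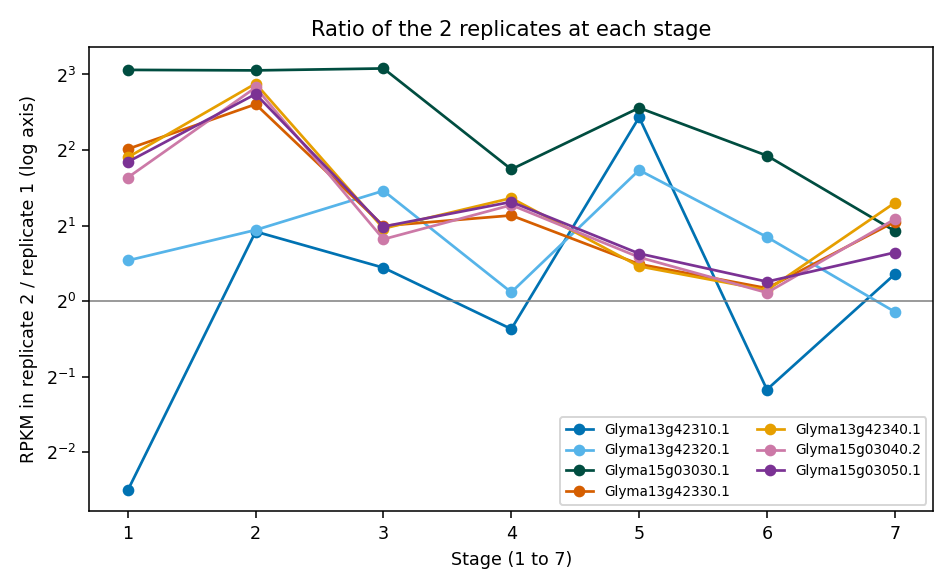
RPKM in replicate 2 divided by RPKM in replicate 1 (log axis) at each stage for the highest model of each measured locus; the grey line marks equal levels. The neighbours lie above 1 at all 7 stages, with 6.09 to 7.36 at stage 2, and Glyma13g42310.1 lies at 0.177 at stage 1.

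Models of one locus carried nearly the same reads. The 2 models of Glyma15g03030 had read ratios of 1.00 to 1.03 in every library and the models of Glyma15g03040 of 1.01 to 1.04 against Glyma15g03040.2, so a count of models is no count of independent genes. No tested member had the same reads as another model in all libraries. The sources used here do not say how reads that match several loci were counted. The levels of near-identical copies, and the low late values of the seed loci beside neighbours of far higher level, are uncertain to that degree.

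The models of other loci with the most similar course were found by the correlation of log2(RPKM + 1) over the 14 libraries, among 20100 models with a stage mean of at least 10 RPKM. For Glyma15g03030.1 they were Glyma10g04280.1 (Pearson correlation 0.977), which is on the list of recalled glycinins, Glyma19g27060.1 (0.964) and Glyma20g28460.2 (0.957). For Glyma13g42330.1 they were Glyma14g31400.1 (0.996), Glyma04g11870.1 (0.992) and Glyma08g38420.1 (0.991), which are short models of 402, 955 and 646 bases. Glyma04g11870.1 was at 0.989 to 1.27 and Glyma08g38420.1 at 0.810 to 1.05 of the RPKM of Glyma15g03050.1 in the 12 libraries after stage 1, and the ratio of both to each of the other 3 neighbours was highest in replicate 1 of stage 7. Whether these models share reads with the neighbours was not tested.

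Loci around the clusters were counted for comparison. Of the 40 loci flanking them, 10 on each side of each cluster, 27 models of 23 loci were tested. Between stage 1 and stage 2 limma called 0 of the 27 (2 at an unadjusted p under 0.05), against 1.78% of all tested models. Limma voom also called 0 of the 27, and 349 of all 44450 tested models. A count of 0 among 27 is near these shares and does not set the flanking loci apart. Over the whole course 1 of the 27 rose and 6 fell (3.70% and 22.2%, median log2 fold change -0.45), against 18.4% and 16.6% of all tested models. Glyma15g03080.1, the highest of them, had 39.1 ± 24.4 RPKM at stage 1, 115 ± 101 RPKM at stage 7 and did not pass (log2 fold change 1.34 ± 1.44, limma adjusted p = 0.472). Between stages 2 and 3 and stages 5 and 6, 9 of the 27 fell and 0 rose in limma, against 17.5% and 8.60% of all tested models. In either direction, limma voom called 4 of the 27 and 12321 of all 44450 tested models.

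Other members of the lipoxygenase family were taken from a recalled list of 24 identifiers, of which 15 models of 12 loci were tested. Over the whole course, 8 of the 15 rose and 0 fell (median log2 fold change 2.15), where 18.4% of all tested models rose and 16.6% fell. Of the 15, 9 rose and 2 fell between stages 2 and 3 and stages 5 and 6 (median 1.86), against 8.60% and 17.5% of all tested models. At the step from stage 1 to stage 2, 4 of the 15 rose (26.7%) and 0 fell (median 0.31), against 1.41% and 0.369%. The highest, Glyma07g00900.1, went from 2.19 ± 0.698 RPKM at stage 1 to 461 ± 9.47 at stage 6 and 318 ± 48.1 at stage 7. Its stage mean was highest at stage 6, as for Glyma15g03050, and its lower value at stage 7 did not pass (log2 fold change -0.54 ± 0.536, limma adjusted p = 0.694). Glyma07g00890.1 was at 3.38 ± 2.73 RPKM at stage 3, where the neighbours were already at 102.8 to 237 RPKM, and reached 190.1 ± 94.6 at stage 6.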

How the data were processed

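The deposited files hold 1 RPKM value per gene model and library, per the file headers. The submitters' processing notes name Bowtie, with no role. The sources used here give neither its version nor the genome build, annotation or read counting. Each library's read total and each model's length were recovered from the values: whole reads came out for all 67016 models that exceeded 0 in 2 or more libraries, within 0.003 reads or 1e-08 of the number. Counting error bears most on the seed loci at late stages, where reads are few. The tested models reached 1 RPKM in 2 or more libraries and were analysed as log2(RPKM + 1) in limma 3.58.1 (R 4.3.3), with 1 mean per stage over all 14 libraries, 7 residual degrees of freedom, a mean-variance trend and robust estimation; the spread is pooled over stages, the wide stage 1 pair included. P-values are two-sided. The procedure was tested on simulated data. Each locus is described by its model with the highest mean. Replicates stand for biological replicates, per the labels. Alternatives were other pseudocounts and filters, quantile normalization, a replicate block, limma voom on recovered reads with trimmed-mean scaling, sums per locus and leaving out each library. Members, lists and contrasts were chosen with earlier results of these data known; the lists other than the flanking loci rest on recalled identifiers. No sequence of the loci was used here.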

Additional observations from a re-analysis of the deposited data

How the results depend on the processing

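The direction of each of the 7 measured loci from stage 1 to stage 7 was the same under every alternative that tested it, and the count of called member models stayed between 7 and 10. At the step from stage 1 to stage 2 the count of 6 became 0 with a pseudocount of 5, and leaving out single libraries gave 0 to 6. Under quantile normalization it was 6 with Glyma13g42320.1 called (-1.12) and Glyma13g42340.1 not (limma adjusted p = 0.0515). Between stages 2 and 3 and stages 5 and 6 the count of 8 became 5 when models were summed per locus, which leaves 7 loci to test, and single libraries left out gave 6 to 8; the fall of Glyma15g03030.1 was lost with a pseudocount of 5 (limma adjusted p = 0.0557) and under quantile normalization (0.0636). From stage 6 to stage 7 the count was 0 throughout, and values near 0 changed sign: Glyma13g42310.1 was at -0.0056 and Glyma13g42320.1 at -0.0714 under quantile normalization, Glyma13g42320.1 at -0.0291 in limma voom and Glyma15g03030.1 at 0.45 without stage 6 replicate 2 and 0.15 without stage 7 replicate 1. Leaving out single libraries, Glyma13g42320.1 ran from -0.0188 to 0.0471 and Glyma15g03030.1 from -0.6895 to 0.4532. The seed share with 1 model per locus was 9.05% at stage 2, 0.273% at stage 4 and 0.108% at stage 7. Quantile normalization moved the median of all models by over 0.1, from 0.24 to -0.048 (stage 2 against 1), from -0.43 to -0.13 (stages 5 and 6 against 2 and 3) and from 0.21 to -0.019 (stage 7 against 6). The split of all calls, higher and lower, went from 625 and 164 to 409 and 308, from 3821 and 7759 to 5241 and 3958, and from 405 and 53 to 178 and 151; limma voom gave 7699 and 4622 for stages 5 and 6 against 2 and 3. Without stage 7 replicate 1 Glyma15g03030.2 lost its F call (limma adjusted p = 0.0501). Leaving out 1 library, all calls ran from 9 to 14110 for stage 2 against 1 and from 2 to 1768 for stage 7 against 6. Replicate differences correlated above 0.1 in 18 of 21 pairs of stages (-0.173 to 0.602). The exceptions involve stage 1; among stages 2 to 7 the lowest was 0.149. Pairing needed every pair above 0.1, so the fit without the block is reported; the data hint at pairing after stage 1. With the replicate block the counts of called member models were 10, 6, 8, 0 and 10 for the F test and the 4 contrasts, as without it. The limma adjusted p of Glyma15g03030.1 was then 0.00046 in the F test, and that of Glyma13g42330.1 0.00481 for stage 2 against 1. Over all models 1419 were called for stage 2 against 1 and 759 for stage 7 against 6. Other such counts that moved by over 1.5 times were, for stage 2 against 1 (789), 1498 and 222 with pseudocounts of 0.1 and 5, 486 with no filter and 349 in limma voom. For stages 5 and 6 against 2 and 3 (11580) they were 4830 with a pseudocount of 5 and 23961 with no fold threshold. For stage 7 against 6 (458) they were 0 with a pseudocount of 0.1, 8 with a filter of 5 RPKM and 0 in limma voom, and for stage 7 against 1 (15596) 8044 with a pseudocount of 5.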
